A study of Mus musculus with 36 samples.

Results

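Genes of the renal pelvis lining and the inner medulla, 6 in all, were followed across 36 libraries of mouse kidney cortex: Upk1a, Upk1b, Upk3a, Krt19, Aldh1a3 and Slc14a2. They were chosen by their level per library, being high in single libraries in earlier results of the same data, so their levels are a description and carry no test of that property. All 6 are among the 15730 genes of the deposited count table, and all 6 passed the filter on low counts, which kept 15726 genes.

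Every mouse was a male ApoE-/- animal on the C57BL/6 background, lacking apolipoprotein E and prone to atherosclerosis. The diabetic groups had received streptozotocin, a toxin of pancreatic beta cells, at 6 weeks of age in 5 daily doses of 55 mg/kg, and were given benzo-LXA4 (1.7 µg/kg), LXA4 (5 µg/kg) or ethanol vehicle (0.1%). The nondiabetic groups, without streptozotocin, were given the same 3 treatments. Injections were made 2 times a week. LXA4 is lipoxin A4, a lipid mediator of the resolution of inflammation, and benzo-LXA4 is a synthetic analog of it with a benzene ring in its structure. The labels give treatment in weeks 10 to 16 for an intervention design and do not state that the libraries belong to that design. There were 6 libraries per group, numbered in the labels without a statement that each is a separate mouse, so p-values measure only how far these samples spread, which may be technical.

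Uroplakins are membrane proteins that assemble into rigid plaques on the surface of the umbrella cells of the urothelium, the epithelium that lines the renal pelvis, ureter and bladder. The inner medulla and its papilla project into the pelvis, and their collecting ducts recover urea and water under vasopressin. Neither tissue is part of the cortex, which holds the glomeruli and most of the proximal tubule.

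The tissue named in the labels was checked first. The 10 measured proximal tubule genes summed to between 8450 and 19300 CPM, meaning counts scaled to the library total after TMM adjustment, in every library, and 7 podocyte genes summed to between 243 and 410 CPM. Total counts ran from 8896193 to 43305005 per library. The shallowest libraries, diabetic LXA4 replicate 6 and nondiabetic vehicle replicate 3, also had the largest shares of counts on structural RNA genes, 1.28% and 1.08%, against at most 0.436% in the others. In bulk tissue, fewer cells of a type and less RNA per cell cannot be told apart.

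Upk1a (ENSMUSG00000006313, chromosome 7, 30603092 to 30612847, minus strand) and Upk3a (ENSMUSG00000022435, chromosome 15, 85017141 to 85022547, plus strand) encode a tetraspanin and a single-pass partner of the plaque. Their promoter windows are shown because only these 2 of the 6 genes had one. That of Sprr1a, a small proline-rich protein of squamous and urothelial barriers whose level followed theirs, is shown beside them. Each window runs from 250 bases before to 50 bases after the RefSeq start on GRCm38.p6, 5′ to 3′ on the strand of the gene, at chr7:30612685-30612984 (minus) for Upk1a, chr15:85016891-85017190 (plus) for Upk3a and chr3:92485832-92486131 (minus) for Sprr1a. Capitals mark matches to the motifs searched.
Upk1a: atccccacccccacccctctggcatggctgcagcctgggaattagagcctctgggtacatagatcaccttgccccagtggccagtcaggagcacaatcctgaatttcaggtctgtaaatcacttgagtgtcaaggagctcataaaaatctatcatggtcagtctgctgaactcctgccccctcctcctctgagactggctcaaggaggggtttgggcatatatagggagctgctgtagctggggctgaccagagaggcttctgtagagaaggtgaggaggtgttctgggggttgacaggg
Upk3a: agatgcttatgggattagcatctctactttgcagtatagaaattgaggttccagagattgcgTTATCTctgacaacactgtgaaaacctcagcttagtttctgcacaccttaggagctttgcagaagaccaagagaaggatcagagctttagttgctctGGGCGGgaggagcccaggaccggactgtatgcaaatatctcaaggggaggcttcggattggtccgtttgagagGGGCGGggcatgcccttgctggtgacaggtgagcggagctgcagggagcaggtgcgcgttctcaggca
Sprr1a: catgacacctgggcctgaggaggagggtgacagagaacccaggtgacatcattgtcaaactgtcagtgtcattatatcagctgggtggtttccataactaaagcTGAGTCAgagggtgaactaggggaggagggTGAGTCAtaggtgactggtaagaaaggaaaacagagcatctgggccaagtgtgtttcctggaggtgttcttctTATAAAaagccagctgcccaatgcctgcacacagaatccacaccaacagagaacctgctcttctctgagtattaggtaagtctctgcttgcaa
Both strands were searched for 6 motifs, spelled here by their letters. TATAAA stood for the TATA box and GGGCGG for the box bound by Sp1 (GC box). AGATAA stood for a site of GATA factors and TGANTCA for one of AP-1 factors. AACCNGTT stood for a site of grainyhead-like factors and TGTTTAC for one of forkhead factors. The matches in these windows do not overlap each other. The Upk1a window held none of the 6. Counted with the start base as 1 and the base before it as -1, the Upk3a window held a GATA match on the opposite strand at -188 and GC boxes at -91 and -18. The Sprr1a window held AP-1 matches at -146 and -116 and a TATA box at -43. Of other genes whose levels followed the uroplakins, Capn13 and Fat2 had windows, not shown, with none of the 6 motifs. The window of Fer1l4, also not shown, held an AP-1 match at -25. Over 32851 windows of the same length, 35.7% held the GC box, 13.6% the TATA box, 11.2% the GATA site, 7.81% the AP-1 site, 3.65% the forkhead site and 2.09% the grainyhead-like site. Of the 6 genes, 2 matched the table of windows, Upk1a and Upk3a.

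The other 4 genes lie on GRCm38 as follows. Upk1b (ENSMUSG00000049436) encodes the second plaque tetraspanin, on chromosome 16 from 38773184 to 38800328, minus strand. Krt19 (ENSMUSG00000020911) encodes a small keratin of simple and transitional epithelia, on chromosome 11 from 100140810 to 100148665, minus strand. Aldh1a3 (ENSMUSG00000015134) encodes a dehydrogenase that makes retinoic acid from retinaldehyde, on chromosome 7 from 66390890 to 66427517, minus strand. Slc14a2 (ENSMUSG00000024552) encodes the UT-A urea transporters of the inner medullary collecting duct and thin descending limb. Counts cover whole genes, so its transporter isoforms are pooled. No exon of the 6 genes overlapped an exon of another annotated gene.

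The uroplakin genes were low in most libraries and high in a few, which lay in different groups. Upk1b had a median of 1.08 CPM over all 36 libraries and a range of 0 to 11.8 CPM. It stood at 0.134, 1.94 and 6.64 CPM (lowest, median and highest of 6) with benzo-LXA4, 0.082, 4.96 and 11.8 CPM with LXA4 and 0.161, 0.569 and 6.58 CPM with vehicle in diabetic mice. In nondiabetic mice it stood at 0.0414, 1.15 and 10.6 CPM with benzo-LXA4, 0, 0.2 and 2.03 CPM with LXA4 and 0, 1.5 and 9.2 CPM with vehicle. Each group held a library near the bottom of the range, and all groups except nondiabetic LXA4 held at least 1 above 5 times the overall median. In all, 8 libraries passed that mark, the lowest of them at 5.44 CPM, and the next library stood at 4.37 CPM.

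Upk3a ran from 0 to 7.22 CPM with a median of 0.794 CPM. Diabetic mice had 0, 0.547 and 2.66 CPM with benzo-LXA4, 0.123, 1.69 and 5.67 CPM with LXA4 and 0, 0.207 and 2.51 CPM with vehicle. Nondiabetic mice had 0, 0.851 and 7.22 CPM with benzo-LXA4, 0, 0.107 and 1.3 CPM with LXA4 and 0, 1.28 and 4.55 CPM with vehicle. The 4 libraries above 5 times the median were nondiabetic benzo-LXA4 replicate 1, diabetic LXA4 replicate 5, nondiabetic vehicle replicate 2 and nondiabetic benzo-LXA4 replicate 2. The lowest of these had 4.06 CPM and the next library 2.66 CPM. In 6 libraries Upk3a had no count.

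Upk1a, unlike its partners, was counted in every library, from 0.595 to 9.67 CPM with a median of 1.61 CPM. In diabetic mice it stood at 0.874, 2.37 and 4.91 CPM with benzo-LXA4, 0.943, 3.66 and 9.23 CPM with LXA4 and 0.783, 1.8 and 5.08 CPM with vehicle. In nondiabetic mice it stood at 0.595, 1.69 and 9.67 CPM with benzo-LXA4, 0.898, 0.987 and 2.44 CPM with LXA4 and 0.597, 1.82 and 6.15 CPM with vehicle. Only nondiabetic benzo-LXA4 replicate 1 and diabetic LXA4 replicate 5 passed 5 times the median, and the next library stood at 6.15 CPM.

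Krt19 ran with the uroplakins but reached 5 times its median of 1.76 CPM in 0 libraries. It stood at 0.429, 1.25 and 3.64 CPM with benzo-LXA4, 0.41, 2.71 and 8 CPM with LXA4 and 0.291, 1.85 and 3.9 CPM with vehicle in diabetic mice. In nondiabetic mice it stood at 0.207, 1.98 and 8.48 CPM with benzo-LXA4, 0.0601, 0.192 and 2.24 CPM with LXA4 and 0.0716, 2.11 and 5.33 CPM with vehicle. Its highest libraries were those highest in the uroplakins, nondiabetic benzo-LXA4 replicate 1 and diabetic LXA4 replicate 5.

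Aldh1a3 behaved differently: it was near 1 CPM in most libraries and far above in 4. The 4 were diabetic LXA4 replicate 5 with 89.0 CPM (3548 counts), nondiabetic vehicle replicate 2 with 46.3 CPM (956 counts), nondiabetic benzo-LXA4 replicate 2 with 19.0 CPM (425 counts) and nondiabetic benzo-LXA4 replicate 6 with 11.4 CPM (357 counts). The next library had 3.33 CPM, the median was 0.862 CPM, and the 3 highest libraries held 80.1% of the CPM summed over all 36. In diabetic mice Aldh1a3 stood at 0.542, 0.842 and 1.32 CPM with benzo-LXA4, 0.472, 0.881 and 89.0 CPM with LXA4 and 0.503, 0.899 and 1 CPM with vehicle. In nondiabetic mice it stood at 0.577, 2.15 and 19.0 CPM with benzo-LXA4, 0.295, 0.51 and 0.844 CPM with LXA4 and 0.309, 0.898 and 46.3 CPM with vehicle. Apart from the highest library, the diabetic LXA4 and nondiabetic vehicle groups lay at or below 1.09 and 1.13 CPM.

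Slc14a2 was spread widely rather than raised in single libraries. Its median was 14.1 CPM, 19 libraries had more than 10 CPM and 9 had less than 1 CPM. In diabetic mice it stood at 0, 7.76 and 41.0 CPM with benzo-LXA4, 2.4, 16.0 and 72.1 CPM with LXA4 and 0.146, 10.3 and 32.2 CPM with vehicle. In nondiabetic mice it stood at 0.217, 33.1 and 42.2 CPM with benzo-LXA4, 0, 4.26 and 22.6 CPM with LXA4 and 0.286, 14.3 and 75.0 CPM with vehicle. Libraries below 1 CPM occurred in 5 of the groups and none in diabetic LXA4. Nondiabetic vehicle replicate 4 at 75.0 CPM and diabetic LXA4 replicate 5 at 72.1 CPM passed 5 times the median, and the next had 42.2 CPM. The 2 libraries with no count were diabetic benzo-LXA4 replicate 3 and nondiabetic LXA4 replicate 6. There 3 counts equal 0.11 and 0.0973 CPM before TMM adjustment, which bounds counting error only.

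**Figure D1:**
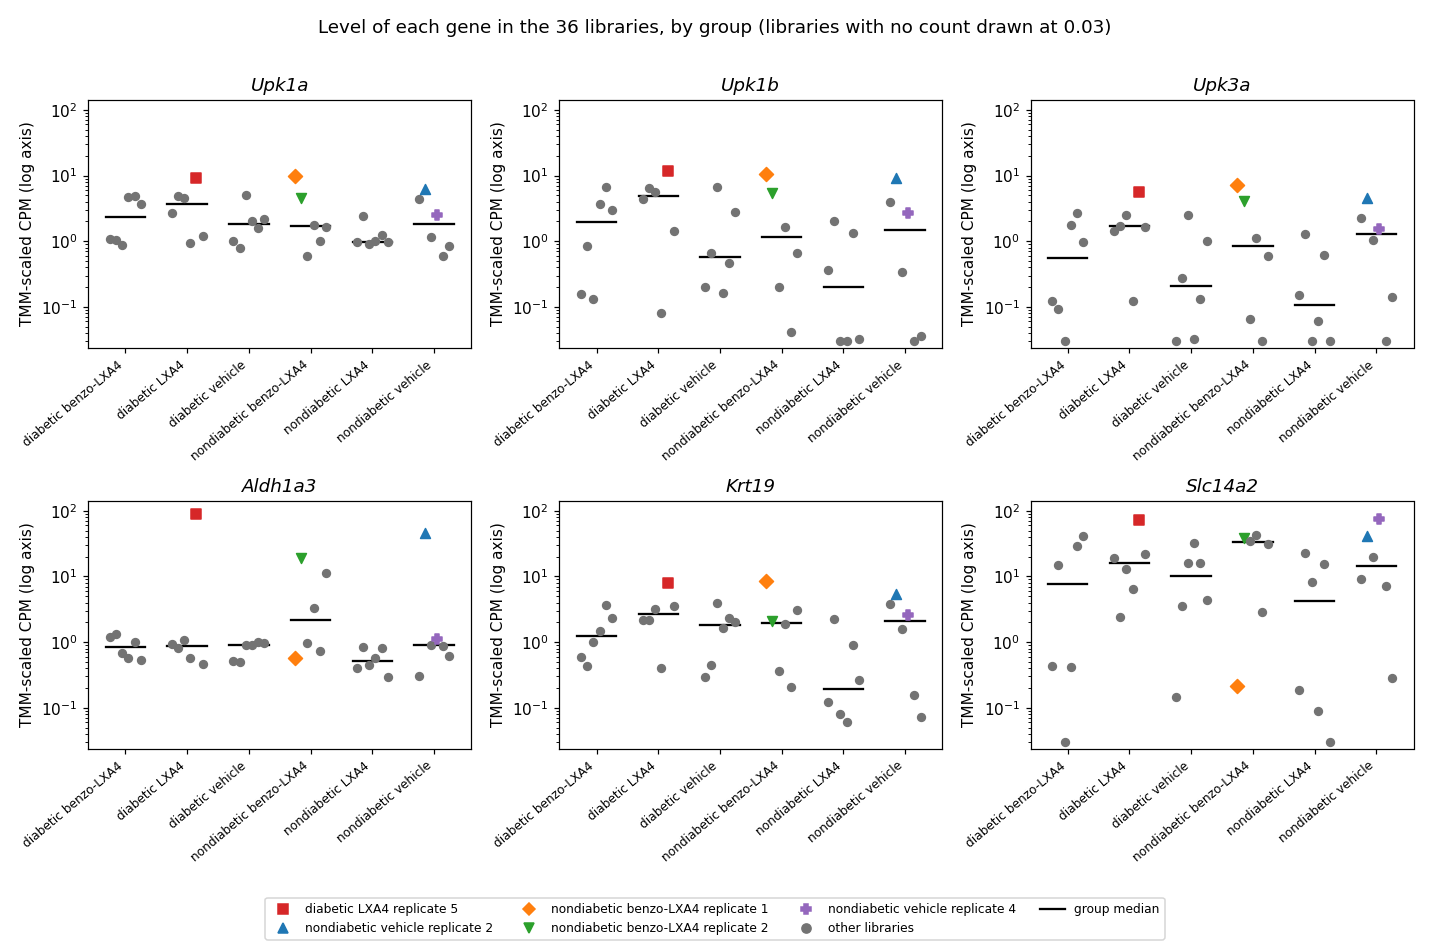
TMM-scaled CPM on a log axis of each of the 6 genes, 1 point per library and 6 libraries per group, with a bar at the group median. Diabetic LXA4 replicate 5 (red squares) is among the 2 highest libraries of every panel, and Aldh1a3 has 4 libraries above all others, from 11.4 to 89.0 CPM.

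The order of the groups did not separate any gene. By median, diabetic LXA4 was highest for Upk1a, Upk1b, Upk3a and Krt19, nondiabetic benzo-LXA4 was highest for Aldh1a3 and Slc14a2, and nondiabetic LXA4 was lowest for all 6. For each gene the ranges overlapped in 15 of 15 pairs of groups, neighbours in the order included. Between 78.8% (Krt19) and 87.5% (Upk1a) of the variance of log2 levels lay within groups. Neither the overlap nor this share was computed over all genes, so they do not set these 6 apart.

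The genes fell into 3 patterns across the libraries. Pearson correlations of log2(CPM + 0.5) over the 36 libraries, which share their depth and scaling, are given as a description. The uroplakins correlated with each other at 0.91 to 0.95 and with Krt19 at 0.85 to 0.88, and their deviations from the group means correlated at 0.92 to 0.96 and 0.84 to 0.88. Spearman's rho among the uroplakins was 0.86 to 0.93, and without the 2 farthest libraries the correlations among them were 0.88 to 0.94. Of the 6 libraries highest in Upk1b, 6 were also the highest for Upk1a and 5 for Upk3a and for Krt19. Slc14a2 correlated with the uroplakins at 0.3 to 0.4 and with Krt19 at 0.51 (rho 0.56, and 0.63 without the 2 farthest libraries). The 4 libraries high in Aldh1a3 stood apart from the rest, so no correlation is given for it with the other 5 genes. All 4 had at least 31.2 CPM of Slc14a2. Other libraries above that level had at most 3.33 CPM of Aldh1a3, in nondiabetic benzo-LXA4 replicate 4 with 42.2 CPM of Slc14a2. Among them, diabetic benzo-LXA4 replicate 6 had 41.0 CPM of Slc14a2 and 0.542 CPM of Aldh1a3.

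Single libraries show how the patterns part. Diabetic LXA4 replicate 5 was over 5 times the median in 5 of the 6 genes. Nondiabetic benzo-LXA4 replicate 1 had the highest Upk1a, Upk3a and Krt19 of all libraries but 0.217 CPM of Slc14a2 and 0.577 CPM of Aldh1a3. Nondiabetic vehicle replicate 4 had the highest Slc14a2 and only 1.13 CPM of Aldh1a3 and 2.66 CPM of Upk1b.

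**Figure D2:**
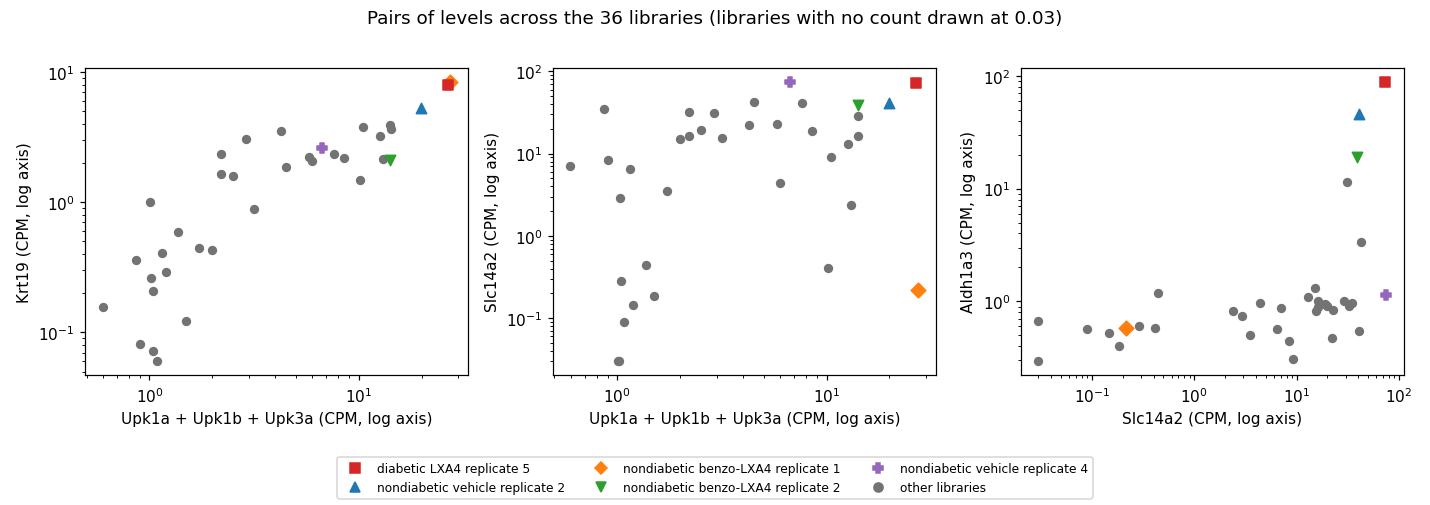
Levels of pairs of genes in the 36 libraries in CPM on log axes, 1 point per library: Krt19 and Slc14a2 against the summed uroplakins, and Aldh1a3 against Slc14a2. Krt19 follows the uroplakin sum, nondiabetic benzo-LXA4 replicate 1 (orange diamond) has high uroplakins with 0.217 CPM of Slc14a2, and the 4 high Aldh1a3 libraries are all at the upper end of Slc14a2.

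The genes most like the uroplakins included a further uroplakin. The 5 with the highest correlation to the mean log2 level of Upk1a, Upk1b and Upk3a were Capn13 (0.963), Upk2 (0.962), Sprr1a (0.96), Fat2 (0.942) and Fer1l4 (0.941). Upk2 encodes the partner of Upk1a in the plaque and Capn13 a calpain protease. Each correlation was at least 0.929 after the 2 libraries farthest from the median were left out. Upk2 stood at 1.65 CPM in diabetic LXA4 replicate 5, 2.02 CPM in nondiabetic benzo-LXA4 replicate 1 and 1.31 CPM in nondiabetic vehicle replicate 2, against a median of 0.136 CPM.

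Krt19 was most like Sidt1 (0.883), Plch2 (0.875), Sprr1a (0.866), Krt5 (0.856), a keratin of basal epithelial cells, and Psca (0.854), a surface antigen of urothelium. Krt5 reached 7.72 CPM in nondiabetic benzo-LXA4 replicate 1, against a median of 0.241 CPM. Psca was instead highest in diabetic LXA4 replicate 5, at 14.8 CPM, with 2.85 CPM in nondiabetic benzo-LXA4 replicate 1.

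Aldh1a3 was most like Gcnt3 (0.949), an enzyme of mucin glycosylation, Muc4 (0.917), a membrane mucin, Rasal1 (0.903), Wnt4 (0.89) and Atp10b (0.884), all 5 highest in diabetic LXA4 replicate 5. The likeness rests in large part on the libraries that stand apart: Spearman's rho was only 0.605 to 0.658, and without the 2 highest Aldh1a3 libraries the correlations were 0.705 to 0.852.

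Slc14a2 was most like Tnn (0.954), Wnt7b (0.945), Sgcz (0.94), Corin (0.938) and Ephb2 (0.921), with rho from 0.948 to 0.962. Wnt7b encodes a Wnt ligand needed for the growth of the medulla. It stood at 34.1 CPM in diabetic LXA4 replicate 5, against a median of 6.2 CPM. Tnn, which encodes an extracellular matrix tenascin, stood at 16.6 CPM in that library and at 0.0722 CPM in nondiabetic benzo-LXA4 replicate 1, against a median of 2.8 CPM.

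Marker lists of kidney compartments, chosen with earlier results of these data known, were set beside the 6 genes. Of 35 other urothelium genes, 28 were in the table and 16 of these correlated above 0.5 with the uroplakins, with a median of 0.615. Over all genes the median was -0.006, and 2.01% lay above 0.5. The first measured of the list, Upk2, Upk3b and Krt5, reached 14.9, 10.5 and 32.1 times their medians. In 13 of the 28 the highest library was over 5 times the median, against 4.08% of all genes. Whatever its height, the highest library was diabetic LXA4 replicate 5 for 12 of the 28, against 6.73% of all genes. It was nondiabetic benzo-LXA4 replicate 1 for 5 of the 28, against 3.87% of all genes. Krt7, a keratin also made by collecting duct, reached 2.81 times its median.

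Of 16 measured inner medulla genes, 10 correlated above 0.5 with Slc14a2, with a median of 0.634, against -0.033 and 5.09% for all genes. The first 3 measured, the water channel genes Aqp2, Aqp3 and Aqp4, were at 0.668, 0.257 and 0.782, and the list ran from -0.356 for Prss8 to 0.945 for Wnt7b. Aqp4 stood at 97.4 CPM in diabetic LXA4 replicate 5 and 79.1 CPM in nondiabetic vehicle replicate 2, against a median of 13.6 CPM. Of 11 outer medulla and thick ascending limb genes, 4 correlated above 0.5 with Slc14a2 (median 0.42). Umod, which encodes uromodulin, was at 0.571, Slc12a1, the furosemide-sensitive cotransporter of the thick limb, at 0.839 and Egf at 0.296. Proximal tubule genes had a median of -0.488 (10 genes) and podocyte genes -0.347 (7 genes).

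Adipose genes correlated with the uroplakins as well, 6 of 7 above 0.5, a value not computed without their highest library. All 7 were highest in nondiabetic benzo-LXA4 replicate 1, where they summed to 801 CPM, against a median of 14.6 CPM and 69.2 CPM in the next library. Ucp1, the uncoupling protein of brown fat, stood at 122 CPM and Adipoq, which encodes adiponectin, at 37.4 CPM in that library. In diabetic LXA4 replicate 5 they stood at 0.426 and 1.96 CPM. The 8 measured smooth muscle genes summed to between 101 and 185 CPM over all libraries. Of the adrenal list only Star was in the table, at 0.895 to 2.52 CPM. The part of these tissues in the levels of the 6 genes was not tested.

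**Figure D3:**
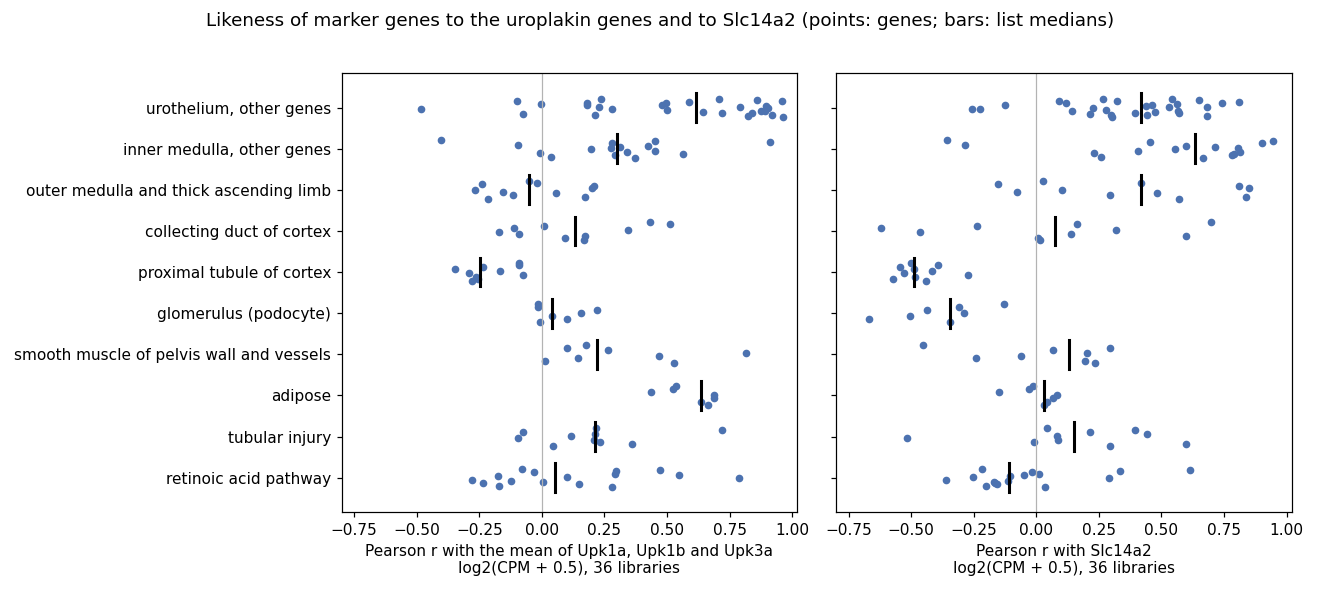
Pearson correlation over 36 libraries of each marker gene with the mean of the 3 uroplakins (left) and with Slc14a2 (right), 1 point per gene and a bar at the median of each list. Urothelium and adipose genes lie to the right on the left panel (medians 0.615 and 0.634), and inner medulla genes on the right panel (median 0.634), where proximal tubule genes lie to the left (median -0.488). The adipose genes are all highest in nondiabetic benzo-LXA4 replicate 1.

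The question of the study is how the compounds and diabetes alter expression, and the 6 genes were read from a fit to all genes (edgeR's quasi-likelihood test, Benjamini-Hochberg adjustment over 15726 genes, threshold 0.05). Comparisons that use the same libraries are not independent of each other. In diabetic against nondiabetic vehicle mice, 0 of the 6 genes passed, beside 5.6% of all genes. An unadjusted p under 0.05 was found for 1 of the 6, beside 3313 of all genes. That gene, Aldh1a3, averaged 0.798 ± 0.224 CPM in diabetic and 8.36 ± 18.6 CPM in nondiabetic vehicle mice (SD, n = 6 each), a log2 difference of -3.37 (SE 1.23, adjusted p = 0.1 by edgeR). Without nondiabetic vehicle replicate 2 the difference was 0.09.

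With LXA4 in diabetic mice, 0 of 6 genes passed, beside 0.356% of all genes (2468 at an unadjusted p under 0.05, of which 1 of the 6). All 6 log2 differences from diabetic vehicle mice were positive, from 0.86 for Krt19 to 4.32 for Aldh1a3 (15.5 ± 36 CPM with LXA4 and 0.798 ± 0.224 CPM with vehicle, edgeR adjusted p = 0.125). Without diabetic LXA4 replicate 5, the difference was 0.05 for Aldh1a3, -0.02 for Slc14a2, 0.51 for Upk1a and 0.28 for Krt19. The remaining genes, Upk1b and Upk3a, had medians over all libraries of the group of 4.96 and 1.69 CPM with LXA4. Their medians with vehicle were 0.569 and 0.207 CPM. Of 282 alternative values of this comparison over the 6 genes (other methods or libraries left out), 3 changed sign. With LXA4 in nondiabetic mice, 0 of 6 genes passed, beside 0% of all genes (967 at an unadjusted p under 0.05, of which 2 of the 6). All 6 differences from nondiabetic vehicle mice were negative, from -1.04 for Upk1a to -3.86 for Aldh1a3, which averaged 0.564 ± 0.228 CPM with LXA4 and 8.36 ± 18.6 CPM with vehicle. Without nondiabetic vehicle replicate 2 the difference was -0.41 for Aldh1a3, -0.59 for Upk1a and -1.14 for Upk1b. The remaining genes, Upk3a, Krt19 and Slc14a2, had medians over all libraries of the group of 0.107, 0.192 and 4.26 CPM with LXA4. Their medians with vehicle were 1.28, 2.11 and 14.3 CPM. In this comparison 0 of 282 such alternative values changed sign, which bears on the direction and not on the size.

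With benzo-LXA4 in diabetic mice, 0 of 6 genes passed, beside 0% of all genes, and 0 of the 6 among 891 genes had an unadjusted p under 0.05. The 95% intervals of the 6 log2 differences from vehicle all included 0 and lay between -2.51 and 2.82. In nondiabetic mice 0 of 6 passed, beside 0% of all genes (452 unadjusted, 0 of the 6), with intervals that all included 0 and lay between -2.64 and 2.56. The intervals leave room for differences of several fold either way.

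The compounds were also compared with each other, at the different doses given above. In diabetic mice, benzo-LXA4 against LXA4 gave 0 of 6 genes, beside 0% of all genes (1089 unadjusted, 1 of the 6). Aldh1a3 averaged 0.885 ± 0.333 CPM with benzo-LXA4 and 15.5 ± 36 CPM with LXA4 (log2 -4.16), and the difference was 0.11 without diabetic LXA4 replicate 5. In nondiabetic mice, benzo-LXA4 against LXA4 gave 0 of 6 genes, beside 0% of all genes (1319 unadjusted, 4 of the 6). All 6 log2 differences were positive, from 1.33 for Upk1a to 3.37 for Aldh1a3 (5.99 ± 7.56 CPM with benzo-LXA4 and 0.564 ± 0.228 CPM with LXA4). Krt19 averaged 2.68 ± 3.04 CPM with benzo-LXA4 and 0.61 ± 0.856 CPM with LXA4. Here too 0 of 282 alternative values over the 6 genes changed sign. How far the sizes rest on single libraries is not given.

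The interaction, that is the LXA4 effect in diabetic minus that in nondiabetic mice, was called for 1 of 6 genes, beside 0.248% of all genes. Of the 6, 5 had an unadjusted p under 0.05, beside 2592 of all genes. The uroplakins and Krt19 vary together and are not separate evidence. In this fit all 6 differences were positive: Upk1a 1.99, Upk1b 3.53, Upk3a 3.76, Krt19 2.66, Slc14a2 2.59 and Aldh1a3 8.17 on the log2 scale. The call was Aldh1a3 (SE 1.77, edgeR adjusted p = 0.0342). It was made from groups whose mean is set by 1 library: without diabetic LXA4 replicate 5 the interaction was 3.89 (adjusted p = 0.176), without nondiabetic vehicle replicate 2 it was 4.70 (adjusted p = 0.211), and without the 4 libraries high in Aldh1a3 it was 0.45 (adjusted p = 0.703). Leaving out each of the 36 libraries in turn, 22 fits kept the call and 14 did not. Beside the 2 named, the call was lost without any of the 6 nondiabetic LXA4 libraries (adjusted p = 0.0515 to 0.0868), without diabetic vehicle replicate 1, 2, 3 or 6 (0.0537 to 0.0845), without diabetic LXA4 replicate 4 (0.0534) and without nondiabetic vehicle replicate 4 (0.0615). The interaction in those fits was 8.04 to 8.42.

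**Figure D4:**
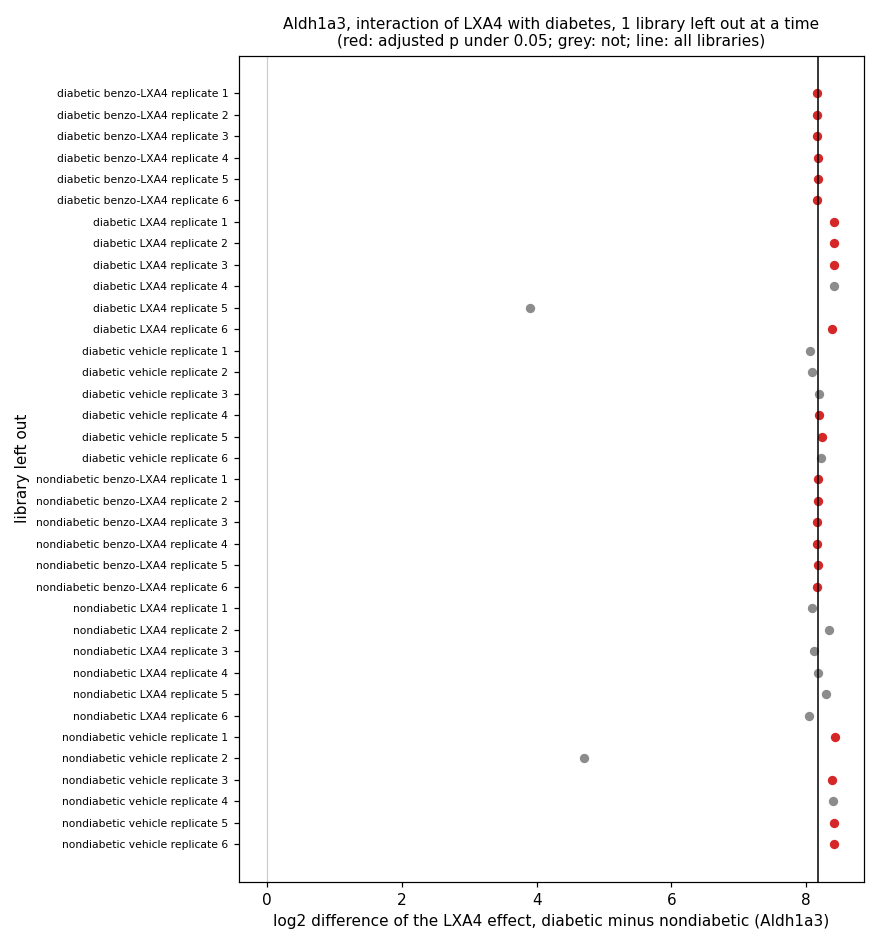
Interaction of LXA4 with diabetes for Aldh1a3 (log2 difference of the LXA4 effect, diabetic minus nondiabetic) with the library named at the left removed; the line marks the value from all libraries, 8.17. Red points have an adjusted p under 0.05. The value is 3.89 without diabetic LXA4 replicate 5 and 4.70 without nondiabetic vehicle replicate 2, and between 8.04 and 8.43 without any of the others.

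The interaction of benzo-LXA4 with diabetes was called for 0 of 6 genes, beside 0% of all genes (673 unadjusted, 0 of the 6), with intervals between -3.31 and 4.07 that all included 0. Diabetic against nondiabetic mice over the 3 treatments gave 0 of 6 genes, beside 35.4% of all genes, and every interval included 0, within -1.84 and 1.96. A test of any difference among the 6 groups called 1 of 6 genes, Aldh1a3 (edgeR adjusted p = 0.00556), beside 21.5% of all genes. Without the 4 libraries high in Aldh1a3 its adjusted p in that test was 0.196, with a replicate block 0.0906 and with voom 0.229. The call was kept in all 36 fits with 1 library left out.

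In diabetic against nondiabetic vehicle mice, 0 of 28 other urothelium genes were called and 1 of 16 inner medulla genes, Prss8, a channel-activating protease (log2 -0.34, edgeR adjusted p = 0.0454). In the interaction of LXA4 with diabetes none of either list was called, with median log2 differences of 0.98 and 1 against 0.03 for all genes. Over the 3 treatments, where 35.4% of all genes were called, 5 of 28 urothelium genes were higher and 2 lower in diabetic mice, and of 16 inner medulla genes 0 were higher and 2 lower. Krt7 was higher by 0.38 on the log2 scale (edgeR adjusted p = 0.00965), and Shh, a signal made by urothelium and papillary collecting duct, was lower (log2 -1.02, edgeR adjusted p = 0.00463). Krt7 correlated with the uroplakins at only 0.214. It is also in a list of tubular injury genes, of which 6 of 10 were higher and 0 lower in this comparison.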

How the data were processed

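Directional libraries were made from rRNA-depleted total RNA of kidney cortex, per the labels' protocols. The authors deposited raw counts for each gene. Per the submitters' processing notes, bcl2fastq 2.17.1.14, STAR and featureCounts were used on GRCm38. STAR and featureCounts have no version there, and the annotation and the strand setting used in counting are likewise not given. The table holds genes with at least 370 counts over all libraries. No columns were left unmatched to the labels, no libraries were identical, and the highest correlation between libraries was 0.9931.

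Groups were taken from the labels. Counts were fitted with edgeR 4.0.16 (quasi-likelihood, TMM factors, its low-count filter, 36 libraries in 1 fit) in R 4.3.3. Benjamini-Hochberg adjustment ran over all genes tested, with a threshold of 0.05. A library was called high where its TMM-scaled CPM was over 5 times the median of all 36. Likeness is the Pearson correlation of log2(CPM + 0.5). The genes named are the 6, genes of the lists that are among the first 3 measured or called, and the 5 most alike per profile. The fit was tested on simulated data for the vehicle comparison over 15726 genes: at a log2 difference of 1 it called 88% of raised genes, at -1 it called 92% of lowered ones, and it called 7 of 15526 unchanged genes. In the deposited data, standard errors of the 6 genes in that comparison ran from 0.62 (Upk1a) to 1.23 (Aldh1a3) on the log2 scale. The share called among genes with standard errors that large was not tested.

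The 6 genes and the lists were chosen with earlier results of these data known. Replicate numbers showed no clear pairing of the libraries. Deviations from the group means correlated at a median of 0 in 90 same-numbered pairs from different groups, and at -0.008 in other pairs. In the same-numbered pairs the range was -0.451 to 0.454, with 35 above 0.1. Of 36 libraries, 5 were closest to one of their own number. Alternatives were RLE size factors, DESeq2 1.42.0, voom of limma 3.58.1 with quality weights, other filters, a robust fit, a replicate block, fits of the compared groups alone, libraries left out, and other marks for a high library. One alternative, without the libraries high in Aldh1a3, was chosen after seeing the data. Gene positions are from GENCODE M21 (GRCm38), where 15697 of the IDs were found.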

Additional observations from a re-analysis of the deposited data

Results flagged for a closer look

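Of the 36 sets of 6 libraries (6 genes in 6 groups), 6 held a library whose gap to the other 5 passed Dixon's 95% limit. Chance alone gives about 1 in 20, but the genes were chosen for being high in single libraries, so this count describes the choice and tests nothing. Aldh1a3 stood at 89.0 CPM in diabetic LXA4 replicate 5 and at 46.3 CPM in nondiabetic vehicle replicate 2. Slc14a2 stood at 72.1 CPM in diabetic LXA4 replicate 5. Krt19 stood at 8.48 CPM in nondiabetic benzo-LXA4 replicate 1, the library with the adipose genes. Upk1a stood at 5.08 CPM in diabetic vehicle replicate 3 and at 2.44 CPM in nondiabetic LXA4 replicate 2, where its group was otherwise tight.

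The LXA4 effect on Aldh1a3 differed between diabetic and nondiabetic mice by 8.17 on the log2 scale (edgeR adjusted p = 0.0342). The call was lost in 14 of 36 fits with 1 library left out, among them those without diabetic LXA4 replicate 5 (3.89, adjusted p = 0.176) and without nondiabetic vehicle replicate 2 (4.70, adjusted p = 0.211), and with a replicate block (5.63, adjusted p = 0.175).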

How the results depend on the processing

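Counts of the 6 genes called were unchanged in 488 of 515 alternative values. The exceptions concern Aldh1a3. In diabetic against nondiabetic vehicle mice the count was 1 with DESeq2 and 0 to 1 with single libraries left out (1 without diabetic LXA4 replicate 5). For LXA4 in diabetic mice it was 1 with DESeq2. For benzo-LXA4 against LXA4 in nondiabetic mice it was 1 without the 3 libraries high in uroplakins. For the interaction of LXA4 with diabetes it was 0 with voom, the replicate block, the compared groups alone, without the libraries high in uroplakins and without those high in Aldh1a3, and 0 to 1 with single libraries left out. With the replicate block, that interaction was 5.63 (adjusted p = 0.175), and with DESeq2 the adjusted p was 0.000215. Over the 3 treatments the count was 0 to 1 with single libraries left out (1 without diabetic LXA4 replicate 5, log2 -1.86). For any difference among groups it was 0 with voom, the replicate block and without the libraries high in Aldh1a3. In that test Aldh1a3 kept its call in all 36 fits with 1 library left out (highest edgeR adjusted p = 0.0109). The cause was not tested.

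Of the log2 differences given, Aldh1a3 changed sign in the vehicle comparison to 0.08 without the libraries high in uroplakins or in Aldh1a3 and 0.09 without nondiabetic vehicle replicate 2 (range with single libraries left out -3.63 to 0.09), and in benzo-LXA4 against LXA4 in diabetic mice to 0.11, 0.12 and 0.11 without the libraries high in uroplakins, those high in Aldh1a3 and diabetic LXA4 replicate 5 (range -4.41 to 0.11). Slc14a2 with LXA4 in diabetic mice changed to -0.04, -0.03 and -0.02 without the same libraries (range -0.02 to 1.45). Over all 10 comparisons, 127 of 2813 alternative differences changed sign, 52 of them in the interaction of benzo-LXA4 with diabetes.

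The number of libraries over the mark depended on the mark. Over 3 times the median it was 6 for Upk1a, 7 for Upk3a and 3 for Krt19, and over 10 times it was 0 for Upk1a, Upk3a and Slc14a2 and 1 for Upk1b, while Aldh1a3 had 5 and 4. Against the median of the own group it was 1 for Upk1a, 5 for Upk1b and 1 for Krt19, and with plain library totals 2 for Krt19. With 3 counts equal to 0.0693 to 0.337 CPM before TMM adjustment, lower levels were not resolved. The TMM factor of diabetic LXA4 replicate 6 was 0.476, so few counts gave larger levels there. In that library 5 counts of Upk1a stood at 1.18 CPM and 2 counts of Aldh1a3 at 0.472 CPM.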

Other observations

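Some genes of retinoic acid metabolism were higher in diabetic than in nondiabetic vehicle mice. Of 16 measured genes of the list, 4 were higher and 0 lower in diabetic against nondiabetic vehicle mice (edgeR, adjusted over all genes), beside 541 higher and 340 lower of all genes tested. Aldh1a1, a retinaldehyde dehydrogenase, was higher by 1.69 on the log2 scale (edgeR adjusted p = 0.00172), and Aldh1a7, its close paralog in rodents, by 1.27 (0.00452). Aldh1a2, a further retinaldehyde dehydrogenase, was higher by 0.95 (0.0238). Reads of Aldh1a1 and Aldh1a7 may be split between them by the counting. Over the 3 treatments 5 of the 16 were higher and 3 lower in diabetic mice, beside 35.4% of all genes called. The lower ones were Rdh10 (-0.28), Adh1 (-0.41) and Dhrs3 (-0.2 on the log2 scale). With LXA4 in diabetic mice, 0 of the 16 were called. The highest library of Aldh1a1 and Aldh1a7 was diabetic vehicle replicate 4, at 37.0 and 37.7 CPM, while diabetic LXA4 replicate 5, the highest in Aldh1a3, had 12.7 and 13 CPM.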
